A study of Danio rerio with 12 samples.

Results

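The photoreceptor and phototransduction genes described here are 36 of the 32349 genes in the joined deposited tables. They were chosen by name from a list of 38 symbols for the visual pigments, the signalling proteins of rod and cone outer segments and the transcription factors of photoreceptors. Names for the other 2 symbols, gngt1 and pde6h, were not matched. By their known cell type, 9 members were counted as rod genes, 19 as cone genes and 8 as genes of both cell types or unassigned.

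The libraries came from whole zebrafish larvae at 3 days post fertilization (dpf), in 12 pools of 25 larvae and 4 groups of 3 pools. The first group was transgenic Tg(ifih1_mut) larvae (here ifih1mut) stimulated with poly I:C (a synthetic mimic of viral double-stranded RNA), and the second was ifih1mut larvae without it. The rest were control larvae with poly I:C and control larvae without it. The series models an inherited disease of raised interferon signalling through ifih1, which encodes the double-stranded RNA sensor MDA5. No source used here gives the promoter of the transgene, the strain, or how much poly I:C was given, by which route and for how long. The labels do not tie the pools to separate clutches, and the p-values therefore speak only of the spread among pools.

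Library totals lay between 31876869 and 100839015 counts. Levels are given as CPM, a gene's count scaled by the TMM-adjusted total of its library. In the check of the labels, ifih1 had 17.5, 25.3 and 33.3 CPM in ifih1mut pools with poly I:C, 11.1, 13.96 and 17.1 in ifih1mut pools, 2.26, 1.92 and 2.02 in control pools with poly I:C and 2.29, 2.73 and 1.98 in control pools. All 6 pools labelled ifih1mut were above all 6 control pools. Libraries are numbered A72 to A83 in the deposited columns, in runs of 3 per group. By place within their group they are called set 1 (A72, A75, A78, A81), set 2 (A73, A76, A79, A82) and set 3 (A74, A77, A80, A83). No label says that the libraries of a set were raised, stimulated or sequenced together.

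Vertebrate photoreceptors detect light with opsins. A photoactivated opsin activates transducin, which turns on a phosphodiesterase that breaks down cGMP and so closes cation channels. Opsin kinases, arrestins and recoverins control how the response ends. Zebrafish larvae see mainly with cones, of which there are ultraviolet, blue, green and red types, and their rods mature later. In RNA pooled from whole larvae, fewer photoreceptors and less RNA per photoreceptor cannot be told apart.

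The cone opsins were dominated by 4 genes. Per kilobase of the deposited gene length, the median level over the 12 libraries was 699 CPM for opn1sw1 (ultraviolet opsin, chromosome 4), 356 for opn1mw1 (a green opsin, chromosome 6), 175 for opn1lw2 (a red opsin, chromosome 11) and 49.5 for opn1sw2 (blue opsin, chromosome 11). The other green opsin tested, opn1mw2, had 6.76 CPM per kilobase. The remaining opsins opn1mw3, opn1mw4 and opn1lw1 had 30, 13 and 107 counts over all 12 libraries. These 3 and the transducin subunit gene gngt2a, with 40 counts, did not pass the filter on low counts, which left 32 members tested among 26508 genes. The green opsin genes lie in tandem with gaps of 2496, 2021 and 7080 bp, and opn1sw2, opn1lw1 and opn1lw2 with gaps of 2239 and 1008 bp. Near-identical neighbours can share reads, so the split among green opsins and among red opsins is uncertain.

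Of the CPM per kilobase summed over the 8 cone opsins, opn1sw1 held between 51.1% and 56.3% in the 12 libraries, opn1mw1 between 26.9% and 29.6%, opn1lw2 between 11.6% and 16.1%, opn1sw2 between 3.54% and 4.004%, and opn1mw2 between 0.323% and 0.956%. These ranges did not overlap, so the 5 ranked in this order in every library.

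**Figure D1:**
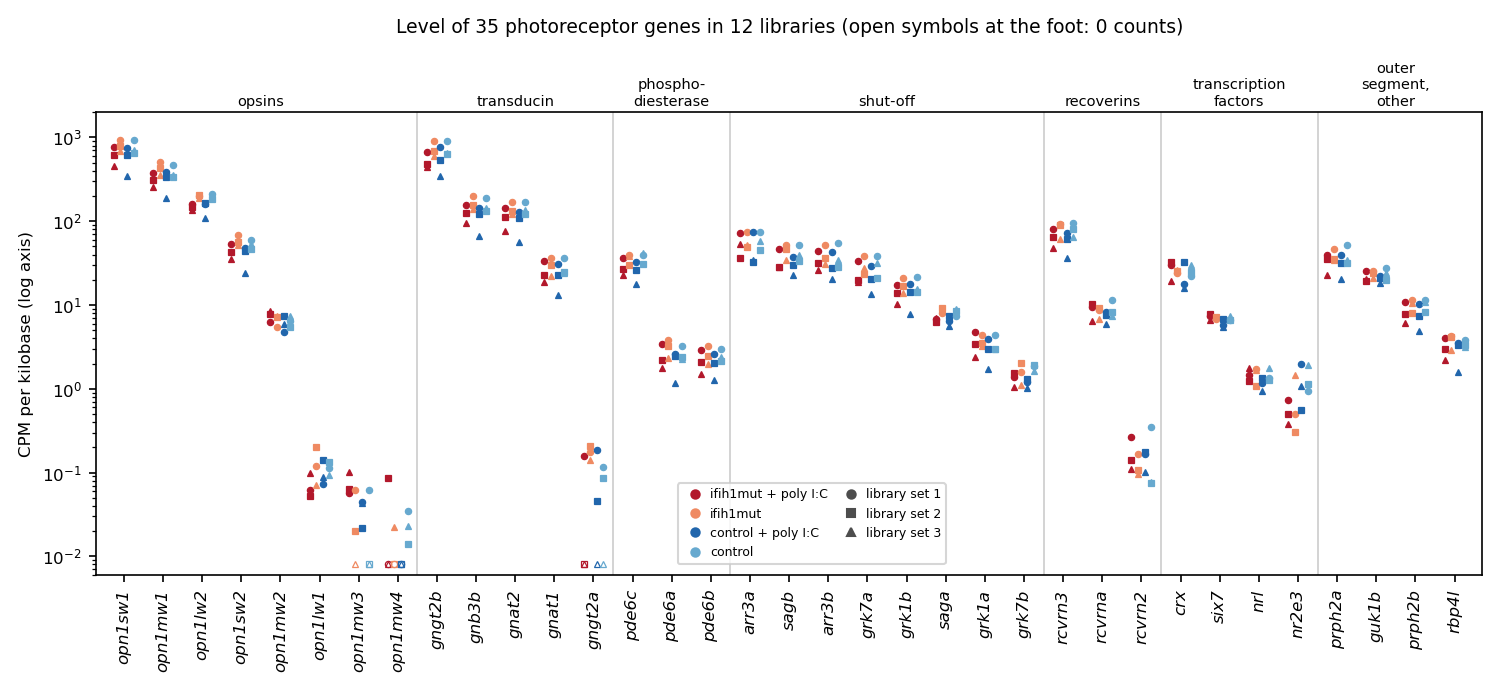
Level of 35 members as CPM per kilobase of gene length on a log axis, 1 symbol per library, coloured by group and shaped by library set. The members span from opn1sw1, at a median of 699 CPM per kilobase, to opsins with almost no counts, and for 27 of the 31 tested members shown the lowest symbol is library A80 (control + poly I:C, set 3).

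After the opsins, transducin subunits were the most abundant class. The cone gamma subunit gngt2b had a median of 639 CPM per kilobase, the cone beta subunit gnb3b 143, the cone alpha subunit gnat2 124 and the rod alpha subunit gnat1 24.4. The recoverin rcvrn3 followed with 68.3, and the arrestin arr3a, known from red and green cones of zebrafish, with 52.8. Rod arrestin sagb was at 35.9 and its duplicate saga at 7.39. Among transcription factors crx, which acts in rods and cones, had 25.1, six7, needed for green opsin expression in zebrafish, 6.83, and the rod factors nrl and nr2e3 1.34 and 0.838. The recoverin rcvrn2 was the lowest tested member, at 0.126.

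Poly I:C in control larvae was compared first. All 32 tested members had log2 fold changes below 0 in stimulated against unstimulated control pools, with a median of -0.36 (rod genes -0.34, cone genes -0.43, genes of both or unassigned -0.31). The median of all genes tested was -0.0043. None of the 32 passed an adjusted p of 0.05 in edgeR's quasi-likelihood test, where 0% of all genes passed. An unadjusted p under 0.05 was found for 4 members, grk7b, opn1lw2, pde6c and saga, and for 1.38% of all genes. DESeq2 without a set term called 0% of all genes in this comparison.

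Among the opsins, opn1sw1 (ENSDARG00000045677, chromosome 4, 13577665 to 13580348, minus strand) had 1351, 1084 and 812 CPM in ifih1mut pools with poly I:C, 1655, 1414 and 1221 in ifih1mut pools, 1323, 1084 and 615 in control pools with poly I:C and 1639, 1155 and 1263 in control pools. Its log2 fold change with poly I:C was -0.43 (SE 0.27) in control larvae, and the groups overlapped because A78 lay above 2 of the unstimulated pools. The blue opsin opn1sw2 had 81.7, 64.8 and 54.4 CPM in ifih1mut pools with poly I:C, 103, 85.97 and 78.5 in ifih1mut pools, 72.9, 67.5 and 37.05 in control pools with poly I:C and 90.7, 71.1 and 80.9 in control pools, and its log2 fold change was -0.45 (SE 0.23). The green opsin opn1mw1 had 584, 491 and 402 CPM in ifih1mut pools with poly I:C, 798, 683 and 560.3 in ifih1mut pools, 610.3, 532 and 295 in control pools with poly I:C and 737, 536 and 559.6 in control pools, and its log2 fold change was -0.35 (SE 0.25). In these 3 opsins A80 was the lowest of the 12 libraries.

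The red opsin opn1lw2 (ENSDARG00000044861, chromosome 11, 25481046 to 25483206, plus strand, in the deposited coordinates) separated the groups in both genotypes. It had 289.6, 266 and 249 CPM in ifih1mut pools with poly I:C, 361, 369.8 and 343 in ifih1mut pools, 291, 302 and 195 in control pools with poly I:C and 381, 329.99 and 349 in control pools. Each stimulated pool was below each unstimulated pool of its genotype. The log2 fold change was -0.43 (SE 0.14) in control larvae and -0.42 (SE 0.14) in ifih1mut larvae. In edgeR its adjusted p was 1 in control larvae and 0.821 in ifih1mut larvae.

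The arrestin saga (ENSDARG00000012610, chromosome 2, 5480125 to 5505094, minus strand) was the other member with no overlap in either genotype. It was counted as a rod gene, but its deposited description, like that of sagb, names retina and pineal gland. It had 23.3, 21.2 and 23.97 CPM in ifih1mut pools with poly I:C, 27.4, 31.4 and 29.9 in ifih1mut pools, 22.1, 24.7 and 18.8 in control pools with poly I:C and 25.3, 28.8 and 30.2 in control pools. The log2 fold change was -0.36 (SE 0.12) in control larvae and -0.37 (SE 0.12) in ifih1mut larvae, with an edgeR adjusted p of 1 in control larvae and 0.567 in ifih1mut larvae. In control larvae 3 of 32 members, opn1lw2, saga and grk7b, lay lower without overlap, against 2.32% of all genes. In ifih1mut larvae they were the 2 genes opn1lw2 and saga, against 2.75% of all genes. No member lay higher without overlap in either comparison, against 2.14% of all genes in control larvae and 3.55% in ifih1mut larvae. These 2 comparisons share no library.

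In ifih1mut larvae the log2 fold change with poly I:C was below 0 in 26 of 32 members. Its median was -0.29 (rod genes -0.29, cone genes -0.33, both or unassigned -0.19), against -0.012 for all genes tested. None passed the adjusted p in edgeR, where 0.69% of all genes did, and opn1lw2 and saga had an unadjusted p under 0.05, against 3.64% of all genes. Log2 fold changes were -0.47 for opn1mw1, -0.41 for opn1sw2 and -0.40 for opn1sw1. The 6 members without a negative value were opn1mw2, rcvrn2, rcvrna, six7, crx and nrl, with log2 fold changes of at most 0.51. DESeq2 without the set term called 0 of the members and 1.16% of all genes. The same contrast raised all 14 listed interferon-stimulated genes past the adjusted p, at a median log2 fold change of 7.25, while in control larvae 0 of the 14 passed and their median was 0.91. These genes were uneven over the control pools with poly I:C. In A78, A79 and A80, stat1b had 0.711, 0.6 and 5.99 CPM and dhx58 0.927, 0.57 and 3.49. Cmpk2 (0.19, 0.24 and 0.90), helz2 (0.96, 0.54 and 1.33) and ifit8 (0.15, 0.12 and 0.33) were also highest in A80. So were mxa (0.56, 0.42 and 1.42) and mxe (0.28, 0.09 and 2.05). Isg15 (1.11, 3.30 and 3.28) and xaf1 (0.19, 0.81 and 0.63) were instead highest in A79. Of the genes named here, ifit8 and xaf1 in A80 lay below an unstimulated control pool (0.41 CPM in A83 and 0.75 in A82). The others in A80 lay above all unstimulated control pools. Summed over the 14 genes, A78, A79 and A80 had 77.3, 66.3 and 80.96 CPM, and the unstimulated control pools A81, A82 and A83 had 73.7, 57.6 and 57.02.

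Transducin genes had negative log2 fold changes in both genotypes. Cone gnat2 had 373, 291 and 195 CPM in ifih1mut pools with poly I:C, 434, 339 and 313 in ifih1mut pools, 330.2, 279 and 145 in control pools with poly I:C and 432, 314 and 351 in control pools. Its log2 fold change was -0.54 (SE 0.30) in control larvae and -0.34 (SE 0.29) in ifih1mut larvae. The beta subunit gene gnb3b had 411, 329 and 254 CPM in ifih1mut pools with poly I:C, 529, 410.1 and 373 in ifih1mut pools, 383, 326 and 176 in control pools with poly I:C and 494, 349.8 and 380.3 in control pools. Gamma subunit gngt2b had 393, 282 and 259 CPM in ifih1mut pools with poly I:C, 526, 399.9 and 349.5 in ifih1mut pools, 446, 313 and 201 in control pools with poly I:C and 518, 366 and 376 in control pools. For gngt2b the groups overlapped in both genotypes. The rod gene gnat1 had 66.01, 44.3 and 37.4 CPM in ifih1mut pools with poly I:C, 72.3, 59.1 and 43.2 in ifih1mut pools, 61.4, 45.3 and 26.1 in control pools with poly I:C and 71.1, 48.8 and 47.2 in control pools, and its log2 fold change was -0.33 in control larvae and -0.24 in ifih1mut larvae, each near or under its SE of 0.32.

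The 3 phosphodiesterase genes also had negative log2 fold changes in both genotypes. Cone pde6c, the catalytic subunit of cones, had 164, 123 and 104 CPM in ifih1mut pools with poly I:C, 181, 136 and 172 in ifih1mut pools, 147, 119 and 79.9 in control pools with poly I:C and 177, 140.4 and 188 in control pools. Its log2 fold change was -0.55 (SE 0.23) in control larvae and -0.33 (SE 0.23) in ifih1mut larvae. Pde6a and pde6b encode the rod catalytic subunits. Pde6a had 13.6, 8.78 and 7.01 CPM in ifih1mut pools with poly I:C, 15.01, 12.9 and 9.204 in ifih1mut pools, 10.4, 9.84 and 4.64 in control pools with poly I:C and 12.9, 9.63 and 8.92 in control pools. Pde6b had 16.4, 11.8 and 8.37 CPM in ifih1mut pools with poly I:C, 17.9, 13.6 and 11.1 in ifih1mut pools, 14.7, 11.4 and 7.14 in control pools with poly I:C and 16.9, 12.04 and 13.2 in control pools. In each of these 3 genes A80 was the lowest library.

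Genes that end the light response include arrestins and opsin kinases. Rod arrestin sagb had 76.1, 45.999 and 45.8 CPM in ifih1mut pools with poly I:C, 83.7, 75.4 and 55.9 in ifih1mut pools, 60.7, 49.02 and 36.7 in control pools with poly I:C and 84.8, 55.2 and 65.1 in control pools, and its log2 fold changes were -0.49 (SE 0.25) in control larvae and -0.36 (SE 0.25) in ifih1mut larvae. The arrestin arr3b, known from ultraviolet and blue cones of zebrafish, had 183, 132 and 109 CPM in ifih1mut pools with poly I:C, 212, 152 and 128 in ifih1mut pools, 176, 115 and 83.5 in control pools with poly I:C and 226, 117 and 144 in control pools. Arr3a had 124, 62.03 and 91.5 CPM in ifih1mut pools with poly I:C, 127, 84.2 and 90.7 in ifih1mut pools, 127, 55.6 and 59.5 in control pools with poly I:C and 127, 77.9 and 99.96 in control pools. In arr3a the 4 libraries of set 1 were the 4 highest, whatever the group. The opsin kinase grk1b, of cones, had 42.4, 33.6 and 25.3 CPM in ifih1mut pools with poly I:C, 51.7, 41.6 and 33.8 in ifih1mut pools, 43.5, 34.5 and 19.2 in control pools with poly I:C and 52.9, 34.6 and 37.7 in control pools. Its rod relative grk1a had 19.5, 13.97 and 9.58 CPM in ifih1mut pools with poly I:C, 17.6, 14.1 and 13.3 in ifih1mut pools, 15.98, 12.1 and 6.96 in control pools with poly I:C and 17.7, 12.2 and 12.3 in control pools. The low cone kinase grk7b had 2.52, 2.82 and 1.89 CPM in ifih1mut pools with poly I:C, 2.85, 3.66 and 2.03 in ifih1mut pools, 2.19, 2.37 and 1.84 in control pools with poly I:C and 3.41, 3.48 and 2.96 in control pools. In control larvae its log2 fold change was -0.62 (SE 0.24), and stimulated pools lay below unstimulated ones without overlap, which was not so in ifih1mut larvae.

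The recoverin rcvrn3 (ENSDARG00000009637, chromosome 19, 10339538 to 10352579, plus strand), a calcium sensor protein of the family that restrains opsin kinases, had 288, 232 and 172 CPM in ifih1mut pools with poly I:C, 334, 322 and 218 in ifih1mut pools, 256, 222 and 130.1 in control pools with poly I:C and 343, 289 and 233 in control pools. Its log2 fold change was -0.51 (SE 0.27) in control larvae and -0.34 (SE 0.27) in ifih1mut larvae. Within each set the stimulated pool was lower than the unstimulated pool in both genotypes. The disc-rim protein gene prph2a had 97.9, 87.4 and 55.9 CPM in ifih1mut pools with poly I:C, 117, 88.6 and 84.3 in ifih1mut pools, 99.4, 78.8 and 50.4 in control pools with poly I:C and 129.6, 79.5 and 84.5 in control pools.

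None of the transcription factor genes separated stimulated from unstimulated pools. Crx had 70.8, 78.1 and 46.1 CPM in ifih1mut pools with poly I:C, 57.9, 60.95 and 63.003 in ifih1mut pools, 41.9, 77.996 and 37.5 in control pools with poly I:C and 53.1, 58.5 and 71.6 in control pools, with a log2 fold change of -0.22 (SE 0.26) in control larvae and 0.10 (SE 0.26) in ifih1mut larvae. Six7 had 29.98, 31.8 and 27.2 CPM in ifih1mut pools with poly I:C, 28.1, 29.02 and 29.2 in ifih1mut pools, 23.4, 27.7 and 22.02 in control pools with poly I:C and 26.7, 27.3 and 29.9 in control pools. The rod factor nrl had 2.16, 1.79 and 2.56 CPM in ifih1mut pools with poly I:C, 2.502, 1.58 and 2.43 in ifih1mut pools, 1.73, 1.95 and 1.39 in control pools with poly I:C and 1.97, 1.85 and 2.61 in control pools. Nr2e3, which represses cone genes in rods, had 1.54, 1.03 and 0.789 CPM in ifih1mut pools with poly I:C, 1.04, 0.633 and 3.03 in ifih1mut pools, 4.11, 1.14 and 2.26 in control pools with poly I:C and 1.94, 2.37 and 4.001 in control pools. It varied more between libraries than any other tested member, with the highest library 6.49 times the lowest.

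The libraries of a set were then compared pair by pair on log2(CPM + 0.5), stimulated over unstimulated. Of 32 members, 21 were lower in all 6 pairs, against 2.4% of all genes tested. At least 5 of the 6 pairs were lower in 24 members, against 11.8% of all genes. The 21 were 12 of 15 tested cone genes, 5 of 9 rod genes and 4 of 8 others. Members varied together over the libraries (median Pearson's r of 0.90 with the others after group means were removed). Counts of members, here and in the other comparisons, are therefore not counts of independent genes. The median over the members in sets 1, 2 and 3 was -0.14, -0.31 and -0.38 in ifih1mut larvae and -0.30, -0.09 and -0.84 in control larvae. The median of all genes lay between -0.0128 and 0.0042. The largest median came from the pair that holds A80.

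**Figure D2:**
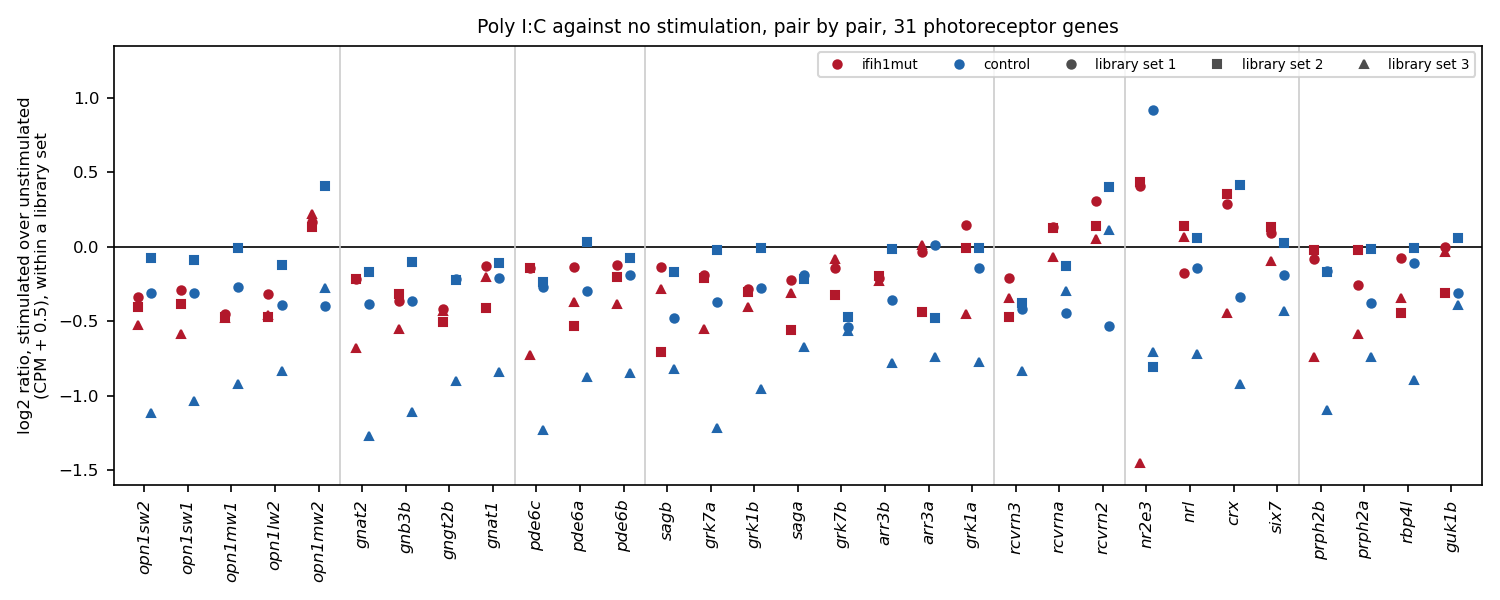
Log2 ratio of stimulated over unstimulated CPM + 0.5 within each library set, for 31 members grouped by role; red symbols are ifih1mut and blue symbols control, and the symbol shape gives the set. Most members lie below 0 in all 6 pairs, the control pair of set 3 (blue triangles, median -0.84) lies lowest, and opn1mw2, rcvrn2 and the transcription factors scatter around 0.

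With the library set added to the edgeR model, still none of the 32 members passed the adjusted p in either genotype, against 0% of all genes in control larvae and 1.04% in ifih1mut larvae. Members with an unadjusted p under 0.05 then numbered 24 in control larvae (3.98% of all genes) and 11 in ifih1mut larvae (7.21% of all genes). DESeq2 with the same set term called rcvrn3 in control larvae (log2 fold change -0.54, adjusted p = 0.000671), where it called 0.0868% of all genes. It called gngt2b in ifih1mut larvae (log2 fold change -0.45, adjusted p = 0.0323), where it called 1.7% of all genes.

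The average of the poly I:C effects of both genotypes, a contrast chosen after seeing the data, was negative in 30 of 32 members, with a median log2 fold change of -0.37 against -0.0057 for all genes. With the set term, edgeR called 1 member, rcvrn3, lower (log2 fold change -0.44, SE 0.07, adjusted p = 0.0144), against 0.532% of all genes called and 0.0566% called lower. Next were opn1lw2 (adjusted p = 0.0576), gngt2b (0.0599), sagb (0.084) and saga (0.0996). DESeq2 with the set term called 14 members, all lower, and 1.66% of all genes. Among them were gnat2, gnb3b, gngt2b, grk1b, grk7a, opn1lw2, opn1mw1, opn1sw1, opn1sw2, pde6c, rcvrn3, saga and sagb. Without the set term DESeq2 called 2 members, opn1lw2 and saga, and 0.751% of all genes. An unadjusted p under 0.05 in edgeR with the set term was found for 24 members, against 8.27% of all genes. In edgeR the call on rcvrn3 was absent without the set term and when any of the 3 sets was left out.

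The size of the control comparison depended on single libraries. Without A80 the median log2 fold change of the members in control larvae was -0.15, and without A78 it was -0.64. For the average effect the median was -0.27 without A80. The authors' deposited table for control larvae gave 34 of 36 members a negative log2 fold change and 0 members an adjusted p under 0.05, with 7 such genes in all. Its unadjusted p was under 0.05 for 6 members, and the share of all genes under it is not given here.

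Between genotypes no member passed the test. In unstimulated ifih1mut against control pools, 12 of 32 log2 fold changes were negative and the median was 0.02. In stimulated ifih1mut against stimulated control pools, 2 were negative and the median was 0.18. Called in edgeR were 0 members in either comparison, against 0.00377% of all genes unstimulated and 0.6% stimulated. Unadjusted p under 0.05 was found for 0 members unstimulated (0.509% of all genes) and for 1 member stimulated, six7 (3.74% of all genes). Nr2e3 had the largest log2 fold changes, -0.81 (SE 0.59) unstimulated and -1.16 (SE 0.61) stimulated. The authors' deposited tables gave 0 members an adjusted p under 0.05, with 5 such genes in all unstimulated and 261 stimulated. Their unadjusted p was under 0.05 for 0 of 36 members unstimulated and for 1 stimulated, nr2e3. The share of all genes under it is not given here, so these counts do not set members apart from all genes. The stimulated median was -0.05 without A80 and also -0.05 without A72, so its sign rested on single libraries. The contrast of the ifih1mut effect of poly I:C minus the control effect had a median of 0.13 over the members, none passed the adjusted p in edgeR against 0.155% of all genes, and 0 members had an unadjusted p under 0.05 (2.04% of all genes). Without A80 that median was -0.07.

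The other fits called 0 members in these 3 contrasts too. DESeq2 called 0.00754% of all genes for unstimulated pools, 1.03% for stimulated pools and 0.513% for the contrast of effects. With the set term DESeq2 called 0.0264%, 1.43% and 0.69% of all genes, and edgeR called 0.00377%, 0.883% and 0.298%. In that edgeR fit an unadjusted p under 0.05 was found for 0 members unstimulated (1.32% of all genes), for six7 stimulated (6.52%) and for 0 members in the contrast of effects (3.72%). No member separated the genotypes without overlap. Among all genes, 1.82% lay higher and 1.64% lower without overlap in unstimulated ifih1mut pools, and 4.16% higher and 3.2% lower in stimulated ones.

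Rods and cones were compared by the summed CPM of the 19 cone members and of 8 of the 9 rod members. The rod sum leaves out a rod member. Its percentage of the cone sum therefore compares libraries and is not the whole rod level against the cone level. The cone sum averaged 3364 ± 750.1 CPM in ifih1mut pools with poly I:C, 4396 ± 687 in ifih1mut pools, 3136 ± 1063 in control pools with poly I:C and 4209 ± 748 in control pools (SD, n = 3). The rod sum averaged 168 ± 44.7 CPM in ifih1mut pools with poly I:C, 205 ± 34.9 in ifih1mut pools, 150.2 ± 43.9 in control pools with poly I:C and 196 ± 32.6 in control pools (SD, n = 3). Each stimulated mean was lower than the unstimulated mean of its genotype, by less than 2 SD of the stimulated pools. The rod sum was 4.97% ± 0.376 of the cone sum in ifih1mut pools with poly I:C, 4.65% ± 0.255 in ifih1mut pools, 4.86% ± 0.325 in control pools with poly I:C and 4.66% ± 0.0789 in control pools (SD, n = 3). These percentages overlapped between all groups, from 4.42% in A77 to 5.26% in A72. Opn1sw1 is the largest part of the cone sum.

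**Figure D3:**
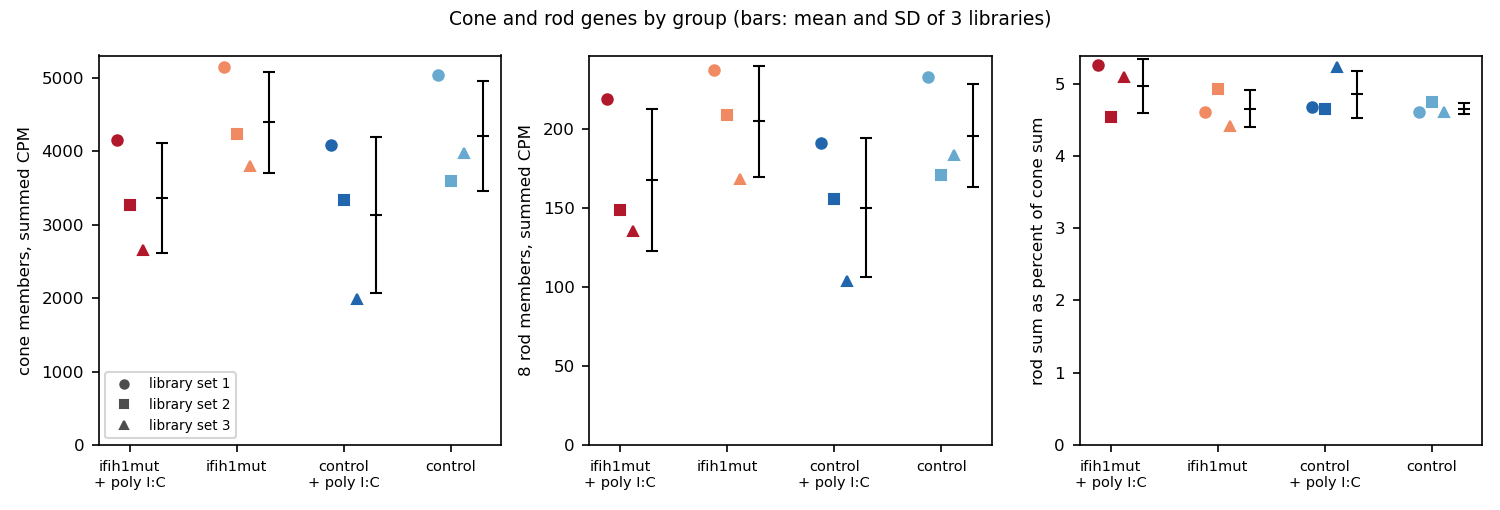
Summed CPM of cone members, summed CPM of 8 rod members and the rod sum as a percentage of the cone sum in each library, by group, with the mean and SD of 3 libraries as bars and the library set as symbol shape. Set 1 (circles) is highest in both sums in every group, and the rod percentage lies between 4.42% and 5.26% with overlapping groups. The rod sum leaves out a rod member, so the percentage is not the whole rod level against the cone level.

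Most calls among the members were between library sets. Set 1 was higher than set 3 for 25 of 32 members in all 4 groups, against 19.1% of all genes, and higher than set 2 for 22 members, against 19% of all genes. With the groups held fixed, edgeR called 21 members in set 1 against set 3, all higher in set 1, while 8.58% of all genes were called higher and 8.24% lower (16.8% in all). DESeq2 called 22 members and 19.4% of all genes. The median log2 fold change was 0.61. The called members included rcvrn3 (0.72, SE 0.08, adjusted p = 0.000215), gnat1 (0.84, SE 0.11, adjusted p = 0.000528) and arr3b (0.79, SE 0.11, adjusted p = 0.000745). Opn1sw1 (0.65), opn1mw1 (0.61), gnat2 (0.70) and pde6a (0.82) were also called. Those not called were opn1mw2, opn1lw2, grk7b, guk1b, prph2b, pde6c, saga, nr2e3, nrl, crx and six7.

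In set 1 against set 2, edgeR called 9 members, all higher in set 1, against 7.54% of all genes called higher and 7.09% lower (14.6% in all). DESeq2 called 12 members and 17.4% of all genes. Arr3a led (log2 fold change 0.88, SE 0.12, adjusted p = 0.000817), and others called were arr3b (0.63), grk7a (0.70), gngt2b (0.47), gnat1 (0.46), sagb (0.44), pde6b (0.43) and prph2a (0.39). The count was 4 without A78, 5 without A82 and 15 without A80. Shares of all genes called in these runs are not given here, so the counts do not set members apart from all genes. In set 3 against set 2, edgeR called 3 members, all lower in set 3, against 3.54% of all genes called lower and 4.92% higher (8.46% in all). These 3 were rcvrn3 (-0.52, adjusted p = 0.0058), rcvrna (-0.40, adjusted p = 0.0489) and grk7b (-0.51, adjusted p = 0.049). DESeq2 called 6 members in that comparison, all lower, and 12.6% of all genes. Its other 3 were gnat1, pde6a and rbp4l. The comparison of set 3 with set 2 was uneven over the groups, with a median log2 ratio of -0.26 in stimulated ifih1mut, -0.12 in ifih1mut and -0.61 in stimulated control pools, but 0.13 in control pools.

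**Figure D4:**
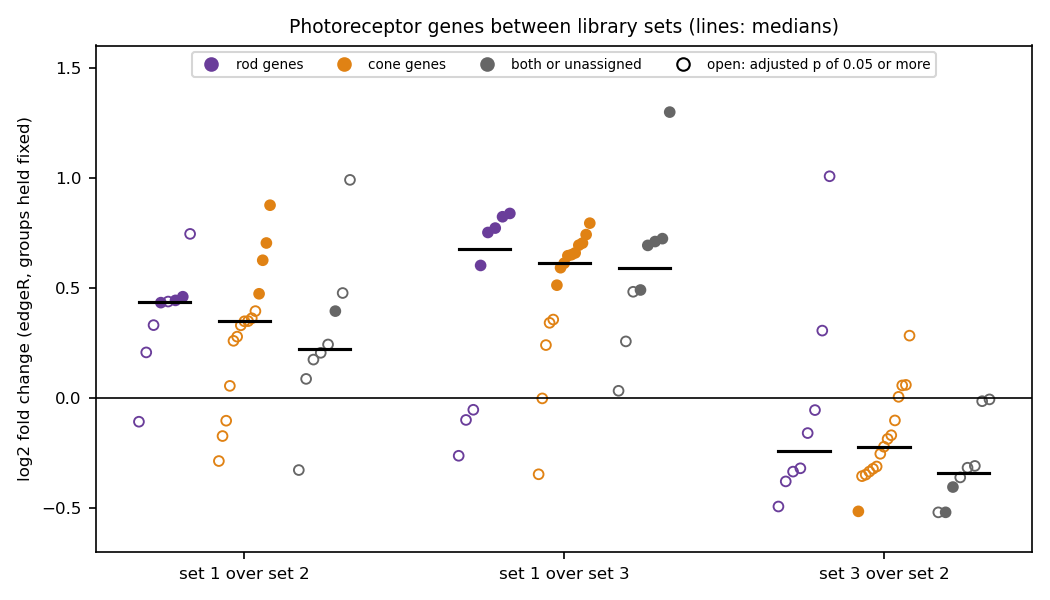
Log2 fold change of 31 tested members between library sets with groups held fixed, for rod, cone and other genes; filled symbols have an edgeR adjusted p under 0.05 and lines are medians. Set 1 lies above set 3 for most members, and the 3 classes have similar medians.

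Other genes of the larva also differed between the sets. Of 31 light-regulated and clock genes, edgeR called 17 higher and 1 lower in set 3 against set 2 (4.92% and 3.54% of all genes). It called 15 lower in set 1 against set 3 (8.24% of all genes). In set 1 against set 2 the called clock genes of smallest adjusted p were per1b, per1a, cry5 and per2. They were higher in set 1, with log2 fold changes of 1.17, 1.70, 0.89 and 0.76. Counts of the 31 called in that comparison, and called higher in set 1 against set 3, are not given here. Per2, a light-induced clock gene, had 142, 75.97 and 227 CPM in ifih1mut pools with poly I:C, 121, 69.7 and 228 in ifih1mut pools, 109, 61.9 and 191 in control pools with poly I:C and 102, 71.8 and 212 in control pools. Its 4 set 2 libraries were the lowest and its 4 set 3 libraries the highest. Of 25 visual cycle and pigment epithelium genes, edgeR called 5 higher and 2 lower in set 1 against set 2 (7.54% and 7.09% of all genes). In set 1 against set 3 it called 9 higher and 3 lower (8.58% and 8.24% of all genes). The melanin genes tyrp1a, pmela and tyr were among those higher in set 1 than in set 2, with log2 fold changes of 1.76, 1.76 and 1.63. The pigment cell regulator mitfa was lower in set 1 than in set 3 (log2 fold change -1.32, adjusted p = 0.000509). Genes of the skeletal muscle, liver, lens, and neuron and glia lists were called by edgeR between sets too. In set 3 against set 2 they included acta1b (log2 fold change 0.65) and atp2a1 (0.77) of muscle. Others were apoba (-0.61) and fabp10a (-0.79) of liver, crygm2d20 (-0.395) of lens, and mbpa (-0.31) and gfap (0.32) of neurons and glia. Counts called in these lists are not given here. The part of any of these genes in the differences of photoreceptor genes between sets was not tested.

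The level of most members followed that of the others across libraries. After the group means were removed, Pearson's r between a member and the mean standardised level of the other tested members had a median of 0.90 over the 12 libraries, with 22 members above 0.8. It was highest for opn1sw1, opn1sw2 and gnb3b (0.99 each, Spearman's rank correlation 0.965 each). These values describe libraries that share sets, A80 and the scaling of CPM. With A80 and A78, the libraries farthest from the median, left out of the correlation, r was 0.98 for opn1sw1, 0.99 for opn1sw2 and 0.98 for gnb3b. The group means removed were still those of all 12 libraries. The value of A79, of the same group, therefore still reflected A80 and A78, and these r are not free of them. Opn1mw2 (-0.42), nr2e3 (0.01), saga (0.19), nrl (0.20), six7 (0.36), crx (0.37) and grk7b (0.44) followed the others least. Genes outside the members were ranked by r too, without genes of low level or with a clone name. The 10 highest were pdcb (0.98), arhgef3l, fkbp16, gabra6a, gnb5b, cplx4a, MPP4 (1 of many), bmp1b, fam107b and cngb3.2 (0.95).

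**Figure D5:**
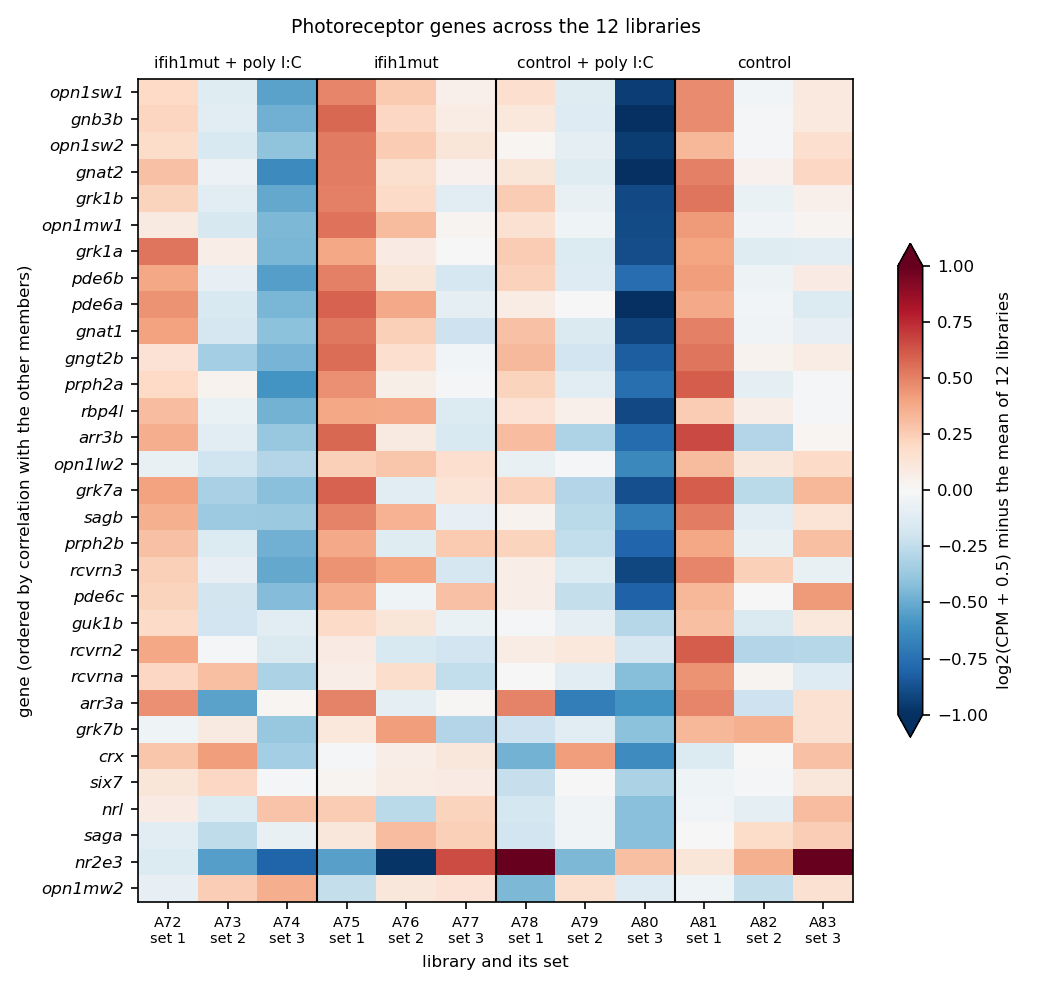
Log2(CPM + 0.5) of 31 tested members minus each member's mean over 12 libraries, with members ordered by their correlation with the others and libraries ordered by group and set. A80 is low in nearly every row, those of crx, six7, nrl and saga included, and A75 and A81, both set 1, are high in most of the upper rows. The members with the lowest correlation, nr2e3 and opn1mw2 last, are at the foot.

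A further list of 63 phototransduction and outer segment genes outside the members was also examined. In control larvae with poly I:C, 61 of 63 had a negative log2 fold change (median -0.27) and 0 passed the adjusted p in edgeR. In ifih1mut larvae 50 of 63 were negative (median -0.12) and 0 passed. In the average of both genotypes with the set term 58 were negative and 1 was called, pde6ha, lower by a log2 fold change of -0.60 (SE 0.10, adjusted p = 0.0227). Pde6ha, named as a cone phosphodiesterase inhibitory subunit gene, had 35.2, 13.4 and 9.94 CPM in ifih1mut pools with poly I:C, 35.6, 19.5 and 15.03 in ifih1mut pools, 27.7, 11.2 and 6.66 in control pools with poly I:C and 41.2, 19.4 and 15.03 in control pools. It was also higher in set 1 than in set 3 (log2 fold change 1.63, adjusted p = 1.34e-05).

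Marker lists of other retinal cells, lens and pigment epithelium gave these values beside the poly I:C comparisons. In whole larvae these lists are not limited to the eye. The retinal list holds gfap, for example, which is also a listed marker of neurons and glia. Of 29 genes of other retinal neurons and Muller glia, 24 were negative in control larvae (median -0.18) and 13 in ifih1mut larvae (median 0.01). For 44 lens crystallin genes the counts were 37 in control larvae (median -0.12) and 12 in ifih1mut larvae (median 0.07), and for 25 visual cycle and pigment epithelium genes 16 in control larvae (median -0.09) and 14 in ifih1mut larvae (median -0.02). None of these genes passed the adjusted p in edgeR. The part of these tissues in the photoreceptor values was not tested.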

How the data were processed

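Each of the 3 deposited tables sets 6 libraries side by side. Raw read counts, log2 fold changes and p-values (plain and adjusted) were made by the authors, per the file headers. No source used here names the aligner, counter, genome build, strand setting or test. Not used were 36 columns of normalized values. Joining on the identifier gave 32349 genes. Counts that appeared in several tables (187002) matched in every case (0 differed), and 6372 missing values in 1484 genes were taken as 0.

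Titles gave the groups. The columns carry library numbers and not the replicate numbers of the titles. The filter filterByExpr (minimum count 10, minimum total 15) kept 26508 genes. Counts were scaled by TMM, and edgeR 4.0.16 in R 4.3.3 fitted all 12 libraries with a term per group (8 residual degrees of freedom). Its quasi-likelihood p was adjusted by Benjamini-Hochberg over all genes, with 0.05 as the threshold. The SE given with an edgeR log2 fold change is its absolute value divided by the square root of the quasi-likelihood F statistic. Library sets were compared in a fit with group and set terms. Alternatives were the Wald test of DESeq2 1.42.0, other scalings and filters, a set term, and leaving out libraries or sets. Pairs of libraries used log2(CPM + 0.5). The edgeR fits of the 4 group comparisons (without a set term) and of the library sets were run on simulated counts with known changes. Genes varied independently in those counts, and no set differences were planted for the group comparisons. The planted changes were larger than the members' changes with poly I:C, so recovery of changes of that size was not tested. DESeq2, group comparisons with a set term, the contrast of effects and the average effect were not tested in this way. The members and lists were chosen with earlier results of these data known. Values in every library are given for called members (up to 12), the highest member of each role, and the rod and cone member of each role with the largest change with poly I:C in control larvae. Those of opn1lw2, saga and nr2e3 were added after they were seen. Genes of other lists were named when called (up to 4 per list and comparison by adjusted p). The 10 genes of highest r were taken from all genes outside the members, the other lists included. Genes of low level and genes with a clone name were left out of that ranking. Read depth limits the low members. Sequences were not used here. The separate values of 1 member are not reported here; it is in the counts, medians and correlations over members but not in sums, shares or figures.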

Additional observations from a re-analysis of the deposited data

How the results depend on the processing

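No paired analysis was possible by the replicate numbers of the titles, because the table columns do not carry them. Those numbers also differ between groups. Unstimulated ifih1mut pools are replicas 3, 4 and 5, and the pools of each other group are replicas 1, 2 and 3. The pairs within a set and the set term rest instead on the order of library numbers within a group, which no label ties to a shared source. Counts of called members stayed within 1.5 times the reported count in 159 of the runs and not in 28. The runs include the group comparisons, where edgeR called 0 members, so this tally says little of how stable the calls are. DESeq2 with the set term called 1 member in control larvae with poly I:C and 1 in ifih1mut larvae with poly I:C, where edgeR called 0. For set 1 against set 2 the count ran from 4 to 15 when single libraries were left out. For set 3 against set 2 it was 6 at an adjusted p under 0.1, 6 with DESeq2, 1 with no filter, and 1 to 4 with single libraries left out. For the average poly I:C effect it was 5 at an adjusted p under 0.1, 2 with DESeq2 without the set term, 3 with no filter, 14 with DESeq2 and the set term, 0 without the set term, 0 without set 1, set 2 or set 3, and 1 to 2 with single libraries left out. The cause was not tested. Shares of all genes called at the other threshold, with no filter or with libraries left out are not given here. A shift in the members is therefore not told apart from a shift over all genes.

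Of the log2 fold changes of named members, 29 changed sign, all in values that passed no threshold. The ranges over single libraries left out were, with poly I:C in ifih1mut larvae, -0.38 to 0.097 for arr3a, -0.43 to 0.026 for arr3b, -0.053 to 0.30 for crx, -0.34 to 0.16 for grk1a, -0.18 to 0.12 for nrl and -0.0089 to 0.10 for six7. In set 1 against set 3 they were -0.14 to 0.23 for crx and -0.059 to 0.056 for six7, and for the average poly I:C effect -0.25 to 0.026 for crx. Leaving out set 2 gave -0.049 for crx, -0.063 for nrl and -0.0024 for six7 in ifih1mut larvae with poly I:C. Leaving out set 3 gave 0.086 for grk1a and -0.036 for nrl there, 0.10 for crx in control larvae with poly I:C, and 0.19 for crx and 0.014 for six7 in the average effect. Another 60 values lost their call and 32 gained one. Group means of the rod and cone sums moved by less than 1 SD with RLE size factors or plain library totals.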
